A study of Mus musculus with 4 samples.

Results

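Metabotropic glutamate receptors are the G protein-coupled receptors of the transmitter glutamate. The 7 genes described here are Grm2, Grm3, Grm4, Grm5, Grm6, Grm7 and Grm8, and they were followed through a map of TOP2B cleavage complexes in cultured mouse cortical neurons. A peak was assigned to a gene when its summit, the position of highest pileup, lay in the RefSeq span of the gene or within 10 kb of it on build GRCm38.p6. That rule assigned 36 of the 35505 peaks on the 19 autosomes and X to the 7 genes, of 21631 protein-coding genes there.

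The neurons were wild-type cells dissociated from Swiss-Webster embryos at embryonic day 16. All 4 libraries, 2 of TOP2B immunoprecipitation and 2 of input DNA, came from cells given etoposide at 50 µM for 30 min, a drug that holds TOP2B covalently on cut DNA, so the series has no untreated group. TOP2B, a type II topoisomerase, passes one DNA duplex through a break in another and relieves the twist that transcription puts into DNA. The deposited values are 1 peak list pooled over libraries. No value therefore has an SD or an n, no test between libraries or conditions was possible, and depth per library is unknown. The list holds no expression values, so the cell type could not be checked against marker genes. Intervals below are 95% exact Poisson intervals, or Wilson intervals for shares above 0. For a share of 0 the limit given is instead 3 counts of the total. These values cover counting error only and are not adjusted over the genes.

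The receptors fall into groups by sequence and coupling. Group I, here Grm5, is mostly postsynaptic and acts through Gq proteins, phospholipase C and calcium release. Group II, Grm2 and Grm3, couples to Gi and Go proteins that lower cAMP, with Grm3 found in glia as well as neurons. Group III, Grm4, Grm6, Grm7 and Grm8, couples the same way, sits largely on presynaptic terminals, and includes Grm6, the receptor by which ON-bipolar cells of the retina sense glutamate.

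Sequence upstream of the RNA start was compared first, because type II topoisomerase activity is often studied at promoters. RefSeq promoter windows of 300 bases, 250 before and 50 after a start, were matched for 5 of the 7 genes (Grm2, Grm3, Grm6, Grm7 and Grm8), with 8 windows in all. The 250 upstream bases of 3 genes are shown, Grm2 as the gene whose start lay nearest to a summit, Grm6 as the other short gene, and Grm8, at its most upstream start, as the gene whose starts lay farthest from one. Capitals mark the GC box letters GGGCGG, searched on both strands. The positions are chr9:106656110-106656359 on the minus strand, chr11:50850435-50850684 on the plus strand and chr6:28135147-28135396 on the minus strand.
Grm2 upstream: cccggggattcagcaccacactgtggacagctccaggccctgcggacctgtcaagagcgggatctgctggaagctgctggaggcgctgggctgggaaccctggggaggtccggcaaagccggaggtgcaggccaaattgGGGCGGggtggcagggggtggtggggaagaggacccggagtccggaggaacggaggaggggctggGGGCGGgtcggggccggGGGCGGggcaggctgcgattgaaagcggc
Grm6 upstream: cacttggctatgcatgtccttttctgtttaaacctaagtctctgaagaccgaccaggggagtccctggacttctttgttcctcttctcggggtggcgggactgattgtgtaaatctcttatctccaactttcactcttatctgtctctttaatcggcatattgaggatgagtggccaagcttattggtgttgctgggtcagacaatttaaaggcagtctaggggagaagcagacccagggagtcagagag
Grm8 upstream: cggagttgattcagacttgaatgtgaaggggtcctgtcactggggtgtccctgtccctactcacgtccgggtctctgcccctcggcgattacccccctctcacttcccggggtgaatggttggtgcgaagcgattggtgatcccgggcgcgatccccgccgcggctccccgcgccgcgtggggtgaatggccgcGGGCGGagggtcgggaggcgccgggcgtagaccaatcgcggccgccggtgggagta

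The Grm2 window was 72.0% G and C with 22 CpG dinucleotides and 4 GC boxes, 3 of them in the bases shown. The Grm6 window was 49.7% G and C with 4 CpG dinucleotides and no GC box. The Grm8 window shown was 67.0% G and C with 33 CpG dinucleotides and 1 GC box. It also held 1 match to TGANTCA, a loose form of the AP-1 letters with any base at N. That pattern reads the same on both strands. The bases of the match were tgattca, and no AP-1 site is read from it. GC boxes were found in 46.7% of the 21045 promoter windows of protein-coding genes, and the TGANTCA pattern in 7.04%. The median window was 56.7% G and C with 13 CpG dinucleotides. The Grm2 and Grm6 windows therefore sat on opposite sides of that median. None of the 8 member windows held a summit, and no peak interval reached into one. Counted as separate windows, 0 of 8 allows a share of up to 37.5%. They come from only 5 genes and those of Grm7 overlap, so that limit is too low. Across all windows 0.675% held a summit, so 0 of 8 is a result about few windows and not about these genes.

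All 7 genes had at least 1 summit in the gene or its 10 kb flanks, against 53.4% of protein-coding genes. Length matters to that count, since 98.7% of the 227 genes of at least 500 kb held one, and 3 of the receptor genes are that long. The 36 summits were spread from 1 at Grm6 to 9 at Grm8, with a median of 4 a gene. Of the 36, 32 lay inside a gene and 4 in flanks. Only Grm6 had none inside, and 36.6% of protein-coding genes had a summit within their span. The flank summit nearest to the 10 kb limit lay 9205 bp outside Grm2 with a fold of 3.11. The nearest one left out lay 11945 bp outside Grm4 with a fold of 2.59.

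**Figure D1:**
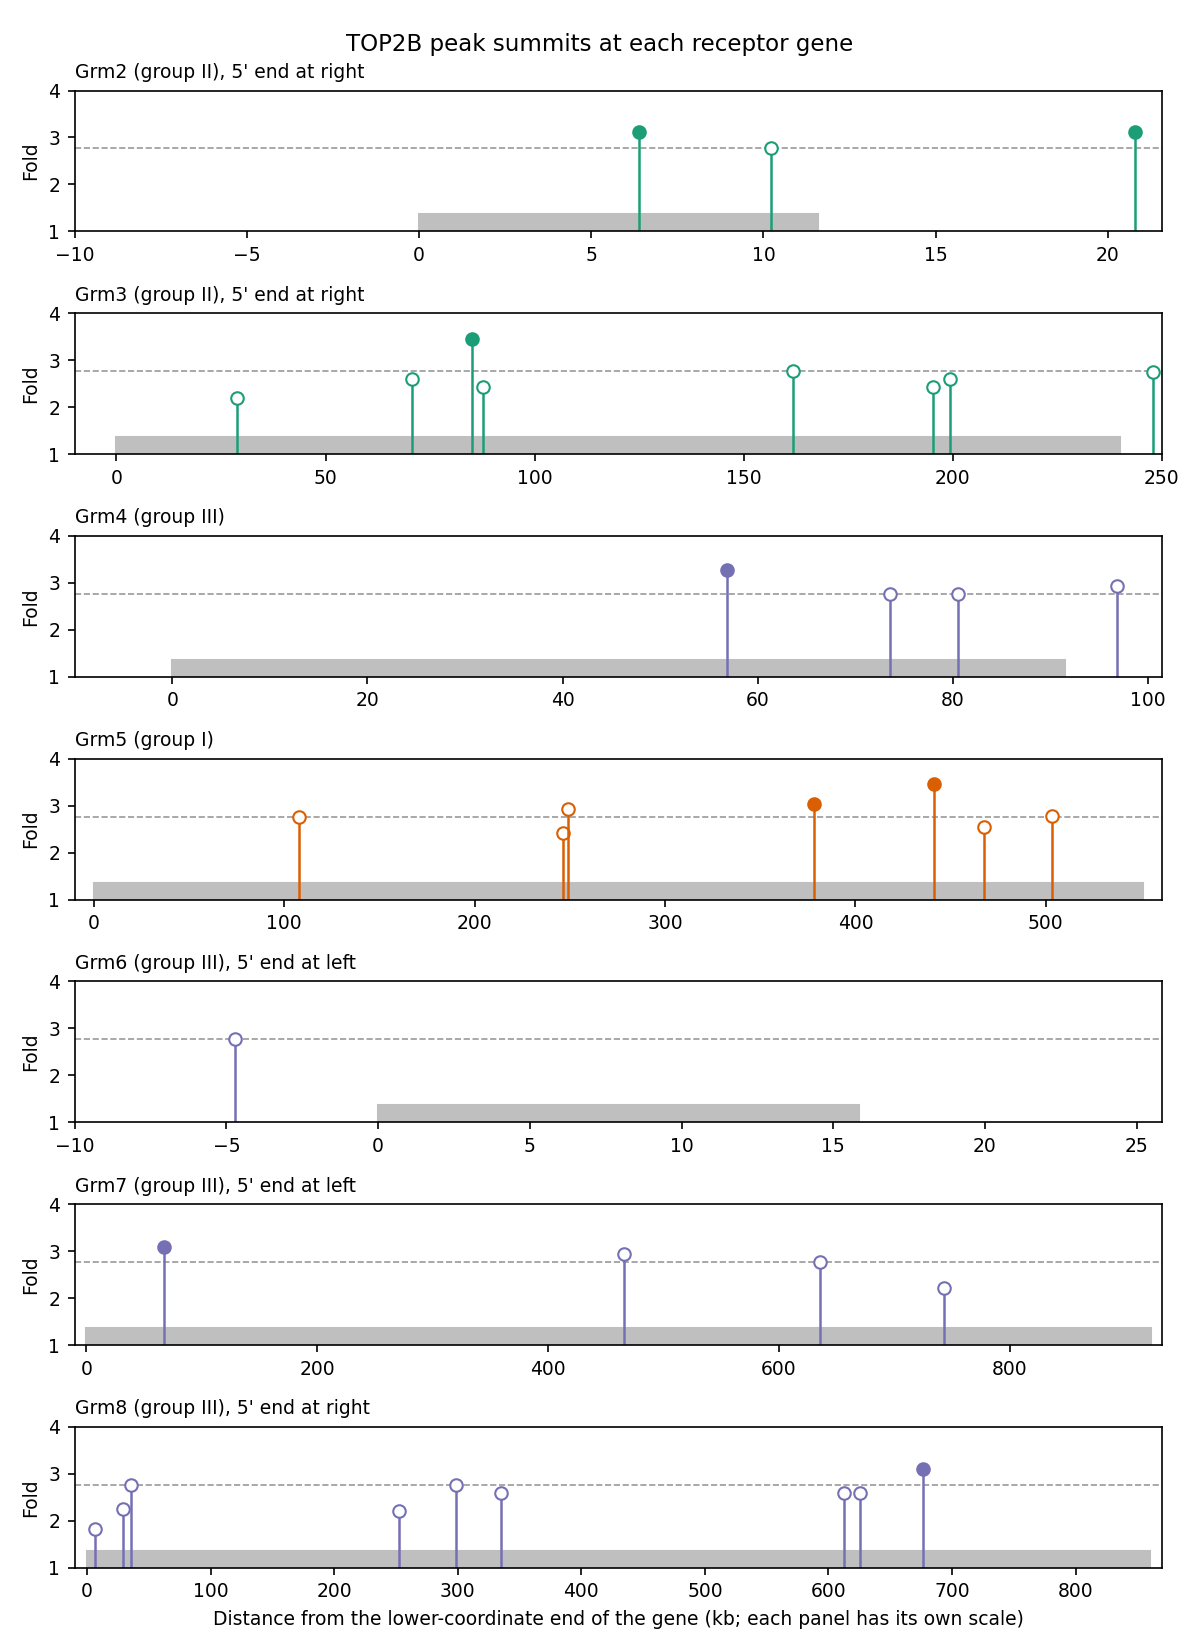
Summits at each gene, with distance from the gene's lower-coordinate end in kb on the x axis (scales differ) and the authors' fold enrichment on the y axis. Grey bars are gene spans, filled points have q of 0.05 or less, the dashed line is the list's median fold of 2.77, and colours mark receptor groups; Grm8 has 3 summits near its 3′ end and none in the 183 kb next to its 5′ end.

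Grm5, the group I receptor that couples to phospholipase C and is the main one of its class in young cortex, held 7 summits. The gene spans 551 kb on chromosome 7 (87583981 to 88135063). Its 7 summits lay between 108 and 503 kb from the lower end, so the first 108 kb and the last 48.0 kb of the gene were empty. The strongest was at 88025430, with a fold of 3.46 and a q of 0.0102, from a pileup of 19 fragments over a control level of 4.78. A constant is added to both before the fold is taken, as given under processing. The second, at 87962379, had a fold of 3.04 and a q of 0.0390 in an interval of 399 bp. These were the 2 summits of Grm5 with a q of 0.05 or less. The other 5 had folds of 2.42 to 2.94. A pair at 87830196 and 87832828 lay 2.63 kb apart, with folds of 2.42 and 2.94. The last, at 88087021, stood over a control level of 5.82 and lay 167 bp from Gm24249, an annotated small nuclear RNA gene of 64 bp.

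Grm2, a group II autoreceptor, is the shortest of the genes at 11.6 kb (chromosome 9, 106644534 to 106656109, minus strand) and held 3 summits with its flanks. The summit at 106650922 lay 5.19 kb downstream of the 5′ end, near the middle of the gene, with a fold of 3.11 and a q of 0.0390. Its interval was 491 bp wide. Intervals of 400 bp or more were 2 of 36 at these genes (5.56%), against 3.17% of the list. A summit at 106654749 lay 1360 bp downstream of the 5′ end, the closest approach to any end among the 7 genes, with a fold of 2.77 and a q of 0.110. The flank summit at 106665314, upstream of Grm2, also had a fold of 3.11 and a q of 0.0390. It falls inside the neighbouring gene Tex264, an autophagy receptor gene for the endoplasmic reticulum, and belongs to that gene as much as to Grm2.

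Grm3, the other group II gene, spans 240.1 kb on chromosome 5 (9485236 to 9725352, minus strand) and held 7 summits inside and 1 upstream. The summit at 9570363, 155 kb from the 5′ end, had a fold of 3.46, a q of 0.0102 and a pileup of 19, equal to the strongest of Grm5. It was the single Grm3 summit with a q of 0.05 or less. A weaker one at 9572796 followed 2.43 kb away with a fold of 2.42, the closest pair in the family. A second pair lay 44.8 and 40.8 kb from the 5′ end, with folds of 2.42 and 2.59. Another 3 summits lay inside the gene, with folds of 2.20 at 9514121, 2.59 at 9555870 and 2.77 at 9647021. The upstream summit at 9733054 lay 7.70 kb outside the 5′ end, in no listed gene, with a fold of 2.76. Grm3 therefore combined 1 of the 2 strongest summits of the family with 6 of 8 folds under the list median.

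Grm4, a presynaptic group III receptor prominent in cerebellum, spans 91.4 kb on chromosome 17 (27422387 to 27513826). All 3 of its internal summits lay toward the upper-coordinate end, 56.9, 73.6 and 80.5 kb from the lower one. Their folds were 3.29, 2.77 and 2.77, and only the first, at 27479274, had a q under the limit, at 0.0208. The flank summit lay 5403 bp outside the upper end with a fold of 2.94. No Grm4 summit had a fold below the list median.

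Grm6, the retinal group III receptor, spans 15.8 kb on chromosome 11 (50850369 to 50866208, plus strand) and held no summit inside. Its single summit, at 50845649, lay 4720 bp outside the 5′ end of the gene span, between Grm6 and the zinc finger gene Zfp879. The fold was 2.77 and the q 0.110, the median values of the whole list. The interval of 492 bp was the widest at the 7 genes, against a list median of 222 bp.

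Grm7, a low-affinity group III receptor of the presynaptic active zone, is the longest gene at 922 kb (chromosome 6, 110645349 to 111567230, plus strand) and held only 4 summits. The first, at 110713144, lay 67.8 kb into the gene with a fold of 3.08 and a q of 0.0208. Its pileup of 20 was the highest at the 7 genes, over a control level of 5.82. The next summit came 398 kb later, at 111111060, with a fold of 2.94. The last 2, at 111281014 and 111388679, had folds of 2.77 and 2.22, the latter over a control level of 7.11. Distances of more than 398 kb made up 1.19% of the 35485 distances between neighbouring summits in the list.

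Grm8, the other long group III gene, spans 860.0 kb on the same chromosome (27275121 to 28135146, minus strand) and held 9 summits, the most of the 7. They formed sets of 3 separated by long empty stretches. The set nearest the 3′ end, within 40 kb of it, had folds of 1.83, 2.25 and 2.77. The middle set, 525 to 608 kb from the 5′ end, had folds of 2.20, 2.77 and 2.59, and 278 kb without a summit followed it. The set nearest the 5′ end had folds of 2.59, 2.59 and 3.11, and its last member, at 27951714, was the only Grm8 summit with a q of 0.05 or less (0.0390). The summit with a fold of 1.83, at 27281294, was the weakest at any of the genes and stood over their highest control level, 7.76. Only 40 peaks in the list had a lower fold. The miRNA gene Mir592 lies inside Grm8, and the nearest summit was 15.0 kb away.

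Starts of the 2 longest genes lay in wide stretches without a summit. Around the Grm7 start no summit was found for 413 kb, from 110300107 to 110713144. Around the Grm8 starts the empty stretch was 347 kb, from 27951714 to 28298233. For 179 protein-coding genes of at least 500 kb with a matched start, the median stretch was 155 kb, and it was longer than at Grm7 for 18 of them and longer than at Grm8 for 28. The start nearest to a summit was 67.5 kb away for Grm7 and 163 kb away for Grm8, against a median of 18.0 kb for those 179 genes, of which 21 and 8 respectively lay farther. At the short group II and group III genes the distance was much smaller, 1.36 kb at Grm2, 5.04 kb at Grm6 and 7.70 kb at Grm3, with a median of 21.1 kb over 17274 genes.

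No gene of the 7 had a summit within 1 kb of either end. The share among protein-coding genes was 8.30%, so 0 of 7 is near the background, and it allows a share of up to 42.9%. For the 5 genes of known strand, 22 summits lay inside the gene, 9 nearer the 5′ end and 13 nearer the 3′ end. Both internal Grm2 summits lay nearer the 5′ end, whereas 6 of 9 at Grm8 and 3 of 4 at Grm7 lay nearer the 3′ end. Exons and introns were not told apart, since the gene table used here gives spans only.

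Per length, the genes ranked in the reverse order of their size, except for Grm6. Grm2 had 9.50 summits per 100 kb of gene and flanks (interval 1.96 to 27.8). Grm4 followed with 3.59 (0.978 to 9.19), Grm3 with 3.08 (1.33 to 6.06) and Grm6 with 2.79 (0.0706 to 15.5). The long genes came last, Grm5 with 1.23 (0.493 to 2.53), Grm8 with 1.02 (0.468 to 1.94) and Grm7 with 0.425 (0.116 to 1.09). Each interval overlapped that of the next gene in the order, so neighbours in the order were not separated by counting error. The interval of Grm2 lay above those of Grm7 and Grm8, and that of Grm3 lay above that of Grm7. The order depends on the flanks. With 50 kb flanks Grm4 came first with 6.27 (3.24 to 10.9) and Grm2 second with 4.48 (1.46 to 10.5), an interval that overlapped that of Grm8. Of the 12 summits then counted at Grm4, 3 lay inside the gene. With no flanks Grm2 had 17.3 (2.09 to 62.4) and Grm6 had 0. Grm7 had 0.391 and 0.434 under these settings, the lowest in each except for Grm6 without flanks.

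**Figure D2:**
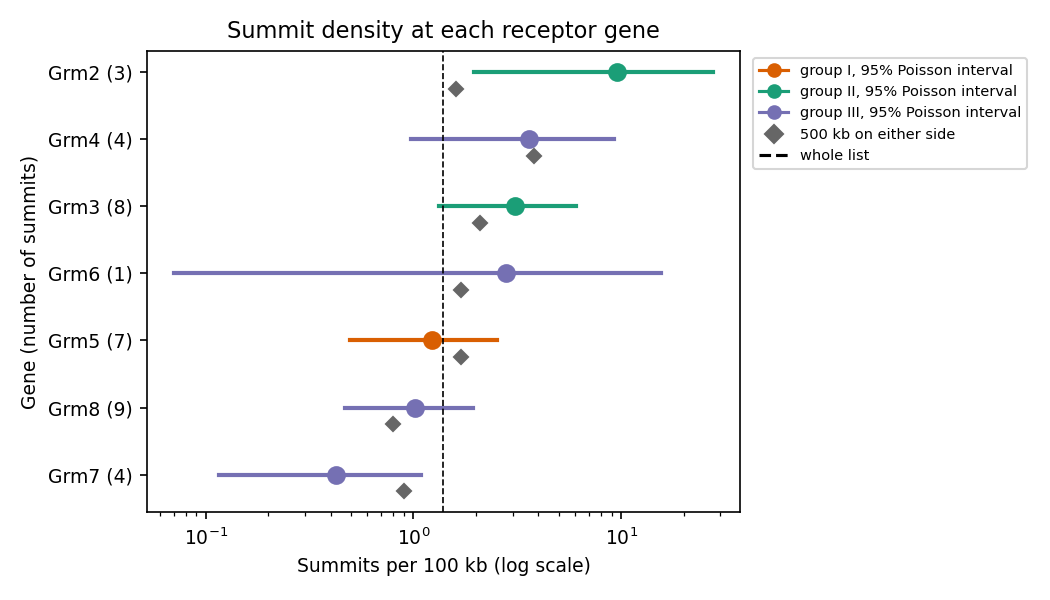
Summits per 100 kb of gene plus flanks (x axis, log scale) for each gene, with its number of summits in parentheses on the y axis. Bars are 95% Poisson intervals, diamonds the density in 500 kb on either side of the gene and its flanks, and the dashed line the whole list at 1.39 per 100 kb; Grm2 is highest at 9.50 and Grm7 lowest at 0.425.

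The 4 genes under 300 kb together had 3.64 summits per 100 kb (2.08 to 5.92) and the 3 over 500 kb had 0.836 (0.511 to 1.29), and these intervals did not overlap. Pooled over all protein-coding genes of a length class, density was 2.28 per 100 kb at 10 to 20 kb, the class of Grm2 and Grm6. It was 1.69 at 50 to 300 kb, the class of Grm3 and Grm4, and 1.33 at 500 to 1000 kb. The median gene had 0, 1.38 and 1.29 in these classes. The 0 arises because only 48.9% of genes of 10 to 20 kb held any summit. Receptor group and length cannot be told apart here. Group II had 3.77 (1.88 to 6.75), the single group I gene 1.23 and group III 0.914 (0.542 to 1.44), and group III holds both of the longest genes. All 7 genes together had 1.27 per 100 kb (0.890 to 1.76), against 1.39 for the whole list and 1.75 for all protein-coding genes with flanks. Leaving out Grm7, which supplies 942 of the 2832 kb, raised the family's density to 1.69 (1.16 to 2.39), the largest rise for any gene left out. The largest fall came from leaving out Grm3, to 1.09 (0.723 to 1.57).

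Against genes of like length the members lay on both sides. Of the 3914 genes of 10 to 20 kb, 109 had a higher density than Grm2 and 1503 a higher one than Grm6. Of 4384 genes of 50 to 300 kb, 473 exceeded Grm4 and 704 exceeded Grm3. Grm5 and Grm8 were within the body of the 168 genes of 500 to 1000 kb, with 92 and 116 above them. Grm7 was near the bottom of that class, with 155 genes above and 12 below.

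Density around the genes was compared with density in them. In 500 kb on either side, beyond the flanks, Grm4 had 3.80 summits per 100 kb (2.69 to 5.22), close to its own 3.59, and Grm7 and Grm8 had 0.900 (0.412 to 1.71) and 0.800 (0.345 to 1.58). Grm2 had 1.60 around it (0.915 to 2.60), Grm3 2.10 (1.30 to 3.21), and Grm5 and Grm6 1.70 each (0.990 to 2.72). For all 7 genes the interval of the gene overlapped that of its surroundings. Compared with whole chromosomes, with 10 kb flanks, the interval of Grm2 lay above the 1.56 per 100 kb of chromosome 9 and that of Grm7 below the 1.40 of chromosome 6, and the other 5 intervals included the value of their chromosome. With 50 kb flanks the Grm2 interval included 1.56 as well, whereas that of Grm4 (3.24 to 10.9) lay above the 1.57 of chromosome 17. Most of the Grm4 summits at that setting lay in the flanks and not in the gene. The Grm7 interval (0.107 to 1.00) stayed below 1.40. The part of the surroundings in the densities of Grm4, Grm7 and Grm8 was not tested.

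**Figure D3:**
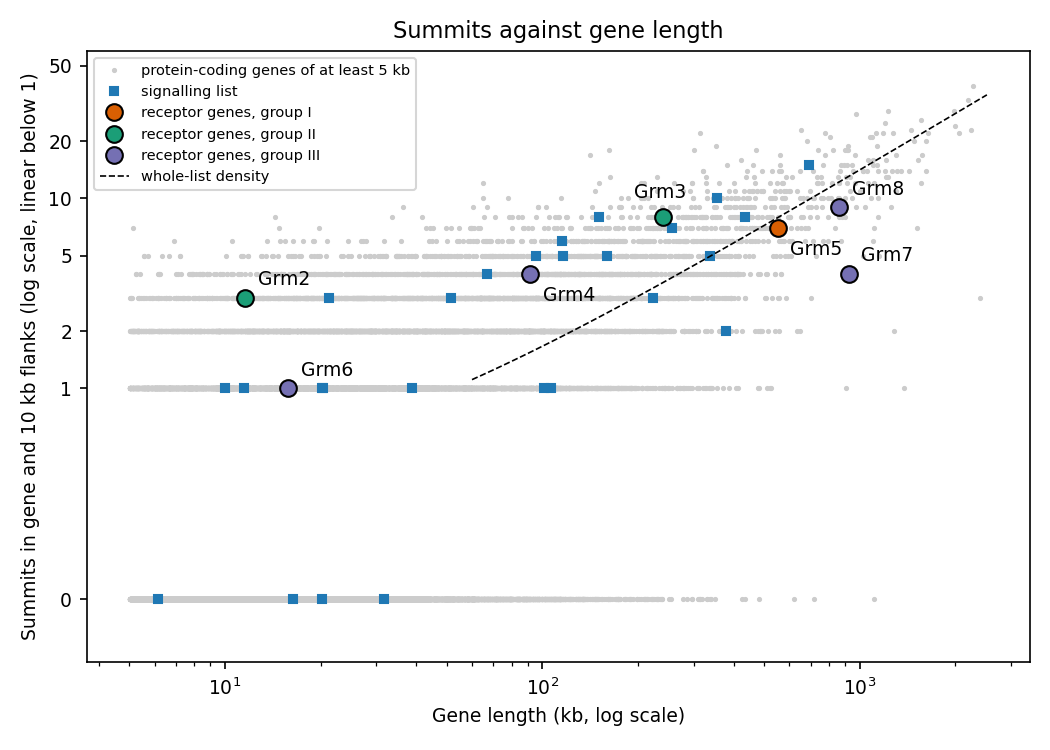
Summits in gene and 10 kb flanks (y axis, log scale, linear below 1) against gene length in kb (x axis, log scale), with grey points for protein-coding genes of at least 5 kb, squares for genes of receptor signalling and large circles for the receptor genes by group. The dashed line is the number given by the whole-list density; Grm7, with 4 summits in 922 kb, lies well below it and Grm2, with 3 in 11.6 kb, lies among short genes with many.

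Genes nearest in length to each receptor gene, taken for length alone, give a sense of the scatter. Nckap5, a Nck-associated protein gene of 917 kb, held 18 summits where Grm7 held 4. Trpm3, a cation channel gene of 858 kb, held 10 where Grm8 held 9, and Rad51b, a recombination repair gene of 551 kb, held 3 where Grm5 held 7. Gramd1b, a sterol transfer gene of 240.4 kb, held 2 against the 8 of Grm3. Among short genes, Atp6v1b1, a proton pump subunit gene, held 1, as Grm6 did. Clec4f, a Kupffer cell lectin gene, held none against the 3 of Grm2, and Gm14569 on chromosome X held none against the 4 of Grm4.

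The strength of the 36 summits was that of the list. Their median fold was 2.77 (quartiles 2.58 and 2.94), the list median was also 2.77 (2.49 and 2.94), and both medians corresponded to a pileup of 15 and a q of 0.110. At a q of 0.05 or less there were 8 of 36, or 22.2% (Wilson interval 11.7 to 38.1), against 23.4% of all peaks. Folds at or above the list median were found for 20 of 36, or 55.6%, against 52.7%. Both shares are near the background. Of these 8 summits, 2 were at Grm2, 2 at Grm5 and 1 each at Grm3, Grm4, Grm7 and Grm8, so 6 of 7 genes held one, where 21.3% of protein-coding genes did. That last share again counts long and short genes alike.

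**Figure D4:**
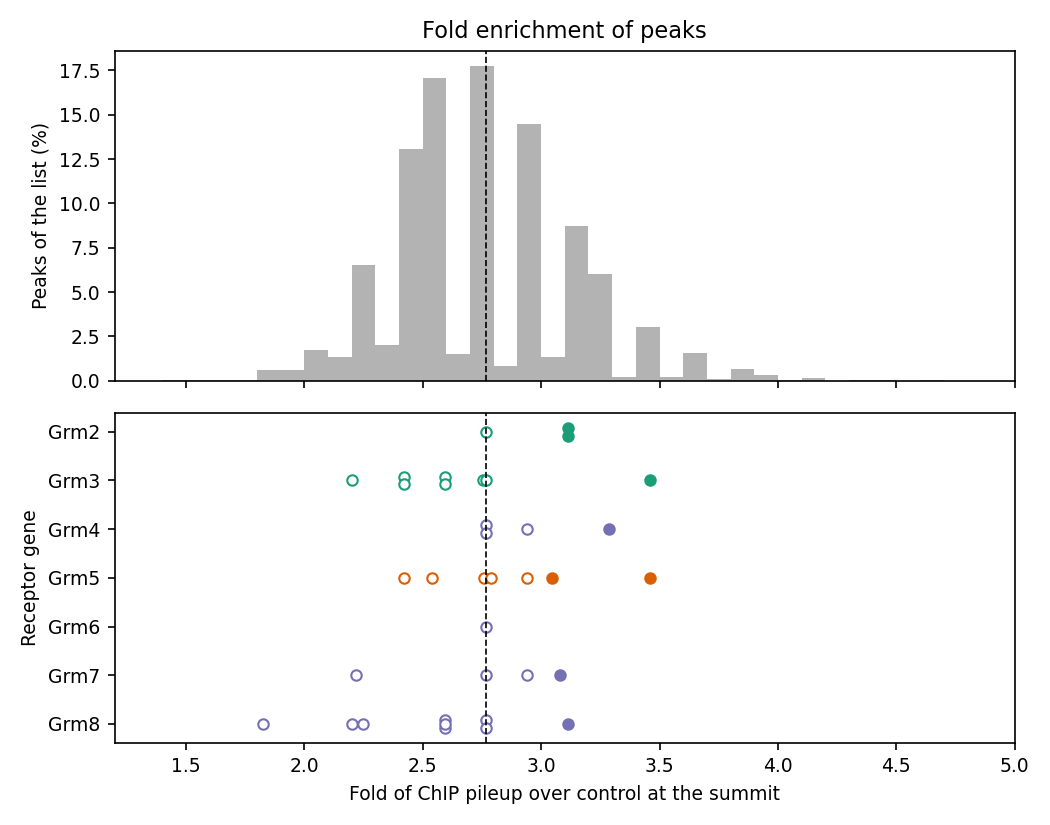
Share of the list's peaks by fold enrichment in bins of 0.1 (upper panel; folds above 5 are not drawn) and each receptor gene summit by fold (lower panel), coloured by receptor group, with filled points for q of 0.05 or less. The dashed line is the list median of 2.77, and receptor summits run from 1.83 at Grm8 to 3.46 at Grm3 and Grm5.

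The highest fold of the family, 3.46, was exceeded by 1104 peaks in the list. Folds take few values because pileups are small whole numbers, and 8 of the 36 equalled the list median. Control level at the summit was 4.78, the most common and also the lowest level in the list, for 24 of 36 (66.7%), against 71.1% of the list. The other 12 stood over levels of up to 7.76. Group I had the lowest such share, 3 of 7, and group II the highest, 9 of 11. Median width was 223 bp, against 222 bp in the list. The smallest width of 190 bp was found for 5 of 36 (13.9%), against 22.4% of the list.

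Neighbouring summits within a gene and its flanks were a median of 35.4 kb apart over 29 distances, against 41.4 kb over the list. The range ran from 2.43 kb at Grm3 to 398 kb at Grm7. Distances of 5 kb or less numbered 4 of 29 (13.8%), 2 at Grm3 and 1 each at Grm2 and Grm5, and in the list they were 9.20%. Member distances cannot exceed the span of a gene and its flanks, whereas those of the list have no such bound. Both comparisons therefore lean toward shorter distances at the members, and nothing is read from them. No member entries lay within 1 kb of each other.

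Genes that act with these receptors were described from a list of 27, of which 26 matched the gene table, and Tamalin was not analysed here. A summit in gene or flanks was found at 22 of 26 (84.6%, against the 53.4% above), with a median of 2.48 per 100 kb, against 0.987 over all protein-coding genes and 2.79 over the 7 receptor genes. The 4 without one, named because they complete the count, were Gna11, Rgs4, Nyx and Lrit3. Length bears on both values: 13 of the 26 are at least 100 kb long and all 13 held a summit, against 90.4% of protein-coding genes of that length, with medians of 2.12 and 1.41 per 100 kb. Of the 13 shorter genes 9 held one, against 48.8%. Summits of q 0.05 or less were found at 13 of 26, against 21.3% of protein-coding genes of all lengths. Only Homer2, which encodes a scaffold that links group I receptors to calcium stores, had a summit within 1 kb of an end, 808 bp from it, with a fold of 2.25 and a q of 0.405. That is 1 of 26, where 8.30% of protein-coding genes had such a summit, so nothing is read from it.

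Among the effectors of group I signalling, 7 of 8 held summits. The share was 53.4% over all protein-coding genes and 90.4% over those of at least 100 kb. Plcb1, a phospholipase C gene activated by Gq, held 15 in 689 kb (2.12 per 100 kb, interval 1.18 to 3.49). Plcb4, also a phospholipase C gene, held 10 in 356 kb (2.66, 1.28 to 4.89). Both lie in 1 region of chromosome 2, where Plcb1 ends at 135475258 and Plcb4 starts at 135658603. A q of 0.05 or less was found for 6 of 15 summits at Plcb1 and 3 of 10 at Plcb4. The count at Grm5 was 2 of 7, and 23.4% of all peaks had such a q. These numbers are small and were not tested. All 8 genes of inhibitory G proteins and adenylyl cyclases, the machinery of groups II and III, held a summit. Both this class and that of group I mix long and short genes, so nothing is read from their counts. Gnai2, an inhibitory G protein subunit gene, had 7.27 per 100 kb (1.50 to 21.2) from 3 summits. The adenylyl cyclase genes Adcy5 and Adcy1 had 4.67 (2.02 to 9.20) and 4.44 (1.63 to 9.67), from 8 and 6 summits.

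The remaining classes of the list were more mixed. Elfn1, a postsynaptic adhesion protein that binds group III receptors across the synapse, had 4 summits (4.59 per 100 kb, 1.25 to 11.8), and both genes of that class held one. Rgs7, a regulator that speeds the turn-off of G proteins, held 8 in 434 kb (1.76, 0.761 to 3.47), and 3 of the 4 genes matched in its class held one. Of the 4 genes listed as partners of Grm6 in ON-bipolar cells, 2 held a summit. These were the channel gene Trpm1 and the orphan receptor gene Gpr179, both named after their values were seen. These counts rest on few genes of mixed length, where 53.4% of all protein-coding genes held a summit. Neither the list nor any class of it was tested against other genes.

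**Figure D5:**
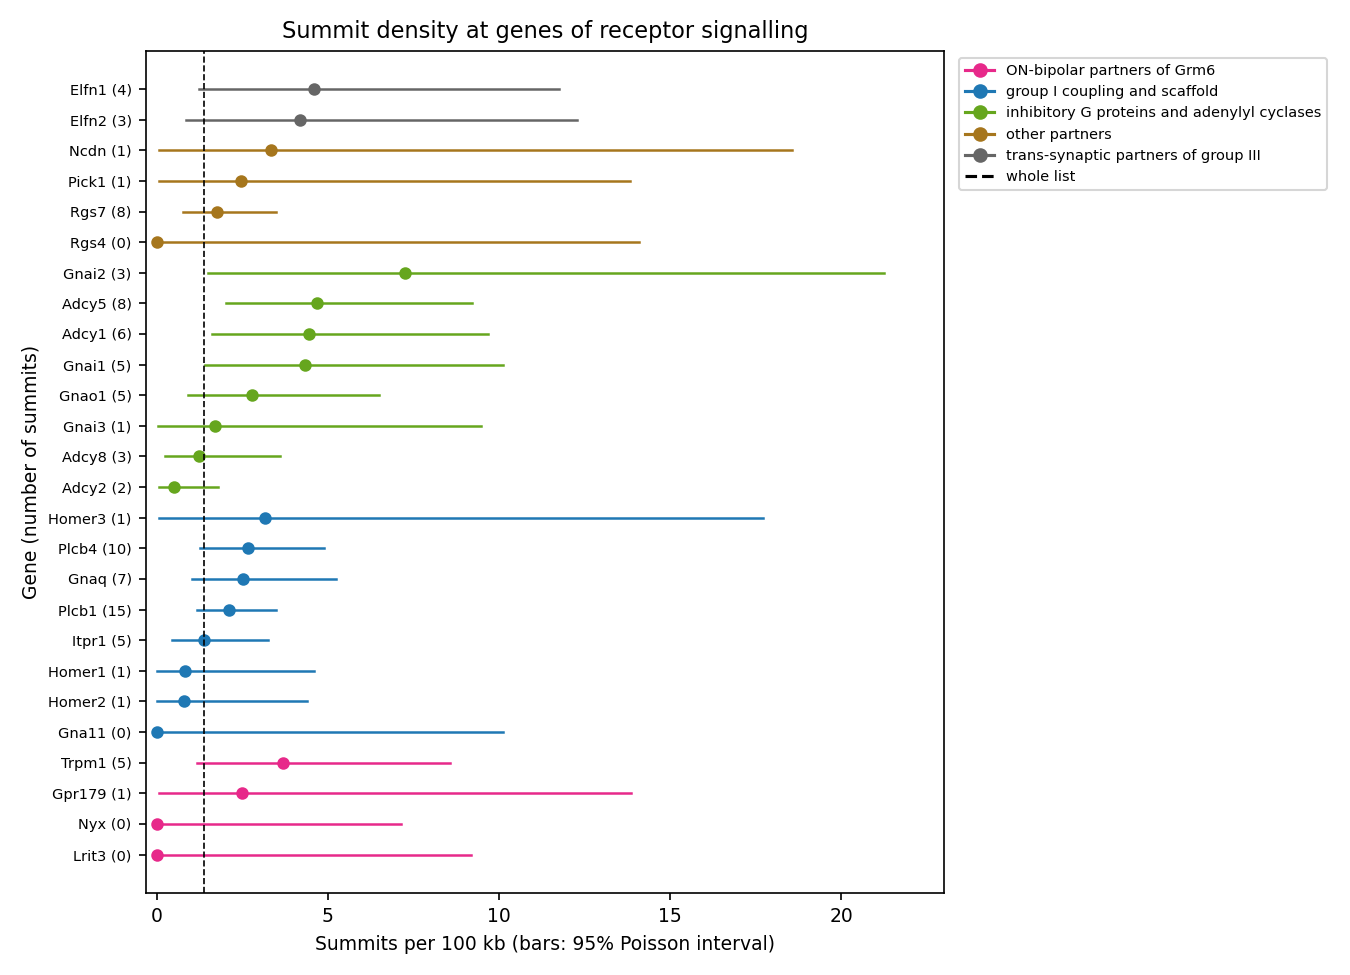
Summits per 100 kb of gene and 10 kb flanks (x axis) for the 26 genes of receptor signalling, coloured by class, with the number of summits in parentheses on the y axis and 95% Poisson intervals as bars. The dashed line is the whole list at 1.39 per 100 kb; Gnai2 is highest at 7.27, and 4 genes are at 0.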

How the data were processed

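The labels describe 2 TOP2B immunoprecipitation and 2 input libraries; the authors deposited 1 headerless peak list pooled over libraries. FastQC, Trimmomatic, BWA, SAMtools and MACS2, with builds mm10 and GRCm38.p6, are named in the submitters' processing notes; their versions and settings, and the filters applied, were not given in the sources used here. By column order, the deposited fold is a ratio of pileup over control, beside deposited −log10 p and −log10 q values and a display score that was not used. The pileups and control levels printed here take that ratio with 1 added to both pileup and control. Deposited positions were made 1-based. The 34 entries on scaffolds were left out.

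Pileup and control were reconstructed from fold and p within 0.002 of −log10 p. Gene spans came from the RefSeq table, and strand from its promoter windows. Density is summits over gene length plus 10 kb on both sides. Counting was tested on simulated data. Tools were Python 3.11.15, NumPy 2.4.6, pandas 2.3.3, SciPy 1.17.1 and matplotlib 3.10.9. No library entered on its own, so no test was run.

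Named were all 7 genes, of the signalling list the 4 with most summits, the 4 densest of at least 20 kb and those with an end summit, and the gene nearest in length to each receptor gene. A gene of the signalling list as first set is not reported here. Members and lists were chosen with earlier results of these data known.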

Additional observations from a re-analysis of the deposited data

How the results depend on the processing

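Counts moved mainly with the peak threshold. Keeping only peaks with q of 0.05 or less left 8 member summits (0.282 per 100 kb), with a median fold of 3.11 and a median −log10 q of 1.55, and 25 summits at 13 genes of the signalling list. Keeping folds at or above the list median left 20 member summits (0.706 per 100 kb) and 61 at the signalling list. Both settings remove peaks by construction. An end window of 5 kb in place of 1 kb found 2 genes, Grm2 and Grm6, against 29.4% of protein-coding genes. Interval overlap found 0. A window of 500 bp and the q limit also found 0, but they are subsets of the 1 kb setting and could find no more than its 0. Flanks of 0 or 50 kb gave 32 and 49 member summits, and with 50 kb Grm4 went from 4 to 12 and passed Grm2 in density. Interval overlap, counting entries within 1 kb once and leaving out high control levels gave 36 each time. The last 2 could not change the count. Member entries lay 2.43 kb or more apart, and their highest control level, 7.76, was under the limit of 2 times 4.78. No paired analysis was possible because the list is pooled over libraries and no result comes from a test, and leaving out a replicate was not possible for the same reason. Depth per library is unknown.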
